A study of Homo sapiens with 6 samples.

Results

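Laminins are the main glycoproteins of basement membranes, and integrins are the cell-surface receptors through which cells bind them. The laminin chain and integrin subunit genes were taken as all rows of the expression table whose symbol is that of a numbered laminin alpha, beta or gamma chain (LAMA, LAMB, LAMC) or of an integrin alpha or beta subunit (ITGA, ITGB). The rule used symbols and no measured values, and found 38 of 23346 rows: 12 laminin chains (5 alpha, 4 beta and 3 gamma) and 26 integrin subunits (18 alpha and 8 beta). Their RNA was sequenced in the human embryonic stem cell line KhES-1, an established line, grown in AKIT medium or in the control, Essential 8 (E8). E8 supplies the growth factors FGF2 and TGF-beta, which AKIT leaves out in favour of small molecules against GSK3, DYRK kinases and calcineurin. Cells of both media grew on dishes coated with 0.5 µg per square cm of a laminin fragment, whose name ends in the same letters as the control medium, so that no group lacked a laminin surface. Values are RPKM, reads scaled by gene length and library depth, from AKIT replicates 1, 2 and 3 and E8 replicates 1 and 2. The series lists 3 samples of each medium, and E8 replicate 3 was not analysed here. All libraries come from 1 cell line, and the labels do not say whether replicates came from different cultures. The p-values therefore reflect the spread among these libraries only, and that spread may be technical.

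A laminin is a cross-shaped trimer of 1 alpha, 1 beta and 1 gamma chain, and the alpha chain carries the main site for cell binding. An integrin is a pair of 1 alpha and 1 beta subunit: ITGA3, ITGA6 and ITGA7 make laminin receptors with ITGB1, ITGA5 and ITGAV bind the RGD sequence of fibronectin and vitronectin, and a further group serves white blood cells. Human pluripotent stem cells are known to hold on to laminins with LAMA5 through the receptor of ITGA6 and ITGB1, and to secrete laminin themselves.

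The libraries held 16242864 to 23263095 reads. Up to 3 reads can lie behind a value of 0 by counting error alone. Pluripotency genes were abundant in every library. Replicates are given in the order of their numbers throughout. POU5F1 stood at 400, 296 and 351 RPKM in AKIT and at 342 and 313 in E8. SOX2 stood at 220, 305 and 236 against 450 and 419, and NANOG at 12.9, 7.60 and 10.9 against 8.31 and 7.98. Of 10 pluripotency markers 2 fell, SOX2 and PODXL, and 0 rose (summed level 3880 to 4050 RPKM in AKIT and 4650 to 4720 in E8). The marker lists of other cells had summed levels between 0.0395 and 72.3 RPKM. AKIT replicate 2 differed most from the other AKIT libraries, with a chi-square per gene of 31.6 and 26.3 against AKIT replicates 1 and 3, beside 16.6 between those and 3.32 between the E8 libraries.

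"Rose" and "fell" are used here of genes with a Benjamini-Hochberg adjusted p under 0.05 by limma, fitted to the 14776 genes whose mean reached 0.5 RPKM. Log2 differences subtract E8 from AKIT after log2(RPKM + 1), a scale that makes changes of low genes look smaller, and carry a standard error after ±. Means carry an SD (AKIT n = 3, E8 n = 2).

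In AKIT the laminin chains LAMA2, LAMB1 and LAMC3 rose, the laminin chain LAMB2 and the laminin receptor subunit ITGA3 fell, and the most abundant receptor subunits did not pass the test. Of the 38 members, 23 reached the filter (9 laminin chains and 14 integrin subunits), and of these 3 rose and 2 fell. Among all genes tested, 8.22% rose and 11.7% fell, 20.0% in all, beside 21.7% of the tested members, so that the share of members called was near the background. The median log2 difference was -0.08 over the tested members and -0.01 over all tested genes. In 10 of the 23 the AKIT and E8 libraries did not overlap, as was true of 54.4% of all tested genes. With E8 replicate 1 or E8 replicate 2 left out, 1 member rose, LAMA2, and 1 fell, ITGA3. Without AKIT replicate 2, 3 rose and 4 fell, with LAMA5 and ITGA7 added to the falls.

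**Figure D1:**
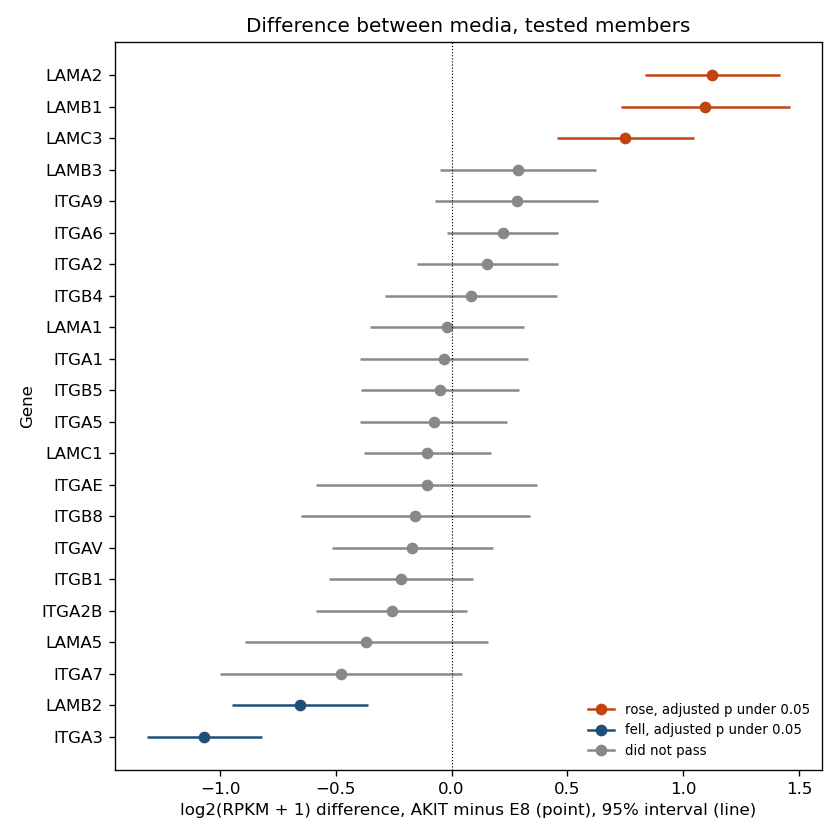
Difference between AKIT and E8 on the log2(RPKM + 1) scale for tested laminin chain and integrin subunit genes, with points for the estimate and lines for the 95% interval of limma's moderated test. LAMA2, LAMB1 and LAMC3 lie to the right of 0 and LAMB2 and ITGA3 to the left, with intervals that do not reach 0.

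Start-site sequences are shown for the laminin chains that moved, since LAMA2 and LAMB1 rose while LAMB2, the chain that can take the place of LAMB1, fell. RefSeq windows (GRCh38.p14) were found for 26 of the 38 members and for 3 of the 5 that passed the test. The 250 bases before the annotated start are printed 5′ to 3′ in the direction of the gene, and capitals mark every match, on either strand, to the motifs searched. These were the GC box GGGCGG, the CCAAT box, the TATA motif TATAAA, the E-box CACGTG and the SMAD motif CAGAC. The TCF/LEF motif was searched as CTTTGAA. It was also searched with T as its last base, as CTTTGAT. The windows are chr6:128882888-128883137 on the plus strand for LAMA2, chr7:108003162-108003411 on the minus strand for LAMB1 and chr3:49133051-49133300 on the minus strand for LAMB2.
LAMA2: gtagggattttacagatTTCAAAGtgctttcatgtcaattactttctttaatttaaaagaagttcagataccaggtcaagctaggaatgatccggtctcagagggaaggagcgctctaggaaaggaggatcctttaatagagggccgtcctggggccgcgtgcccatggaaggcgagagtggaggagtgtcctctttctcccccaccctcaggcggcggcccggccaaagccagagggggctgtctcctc
LAMB1: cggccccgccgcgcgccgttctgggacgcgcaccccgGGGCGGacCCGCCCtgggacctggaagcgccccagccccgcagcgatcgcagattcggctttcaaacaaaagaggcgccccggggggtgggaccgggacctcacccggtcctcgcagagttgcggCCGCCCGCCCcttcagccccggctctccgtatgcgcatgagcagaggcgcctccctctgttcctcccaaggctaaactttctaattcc
LAMB2: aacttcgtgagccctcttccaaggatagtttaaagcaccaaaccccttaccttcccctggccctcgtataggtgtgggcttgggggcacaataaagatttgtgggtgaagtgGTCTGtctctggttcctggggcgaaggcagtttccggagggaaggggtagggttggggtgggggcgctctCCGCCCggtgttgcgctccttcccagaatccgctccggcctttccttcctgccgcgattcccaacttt
The LAMA2 window held 1 match, to CTTTGAA, a motif found in 3.80% of all 35116 windows of this length. The LAMB1 window, with 70.4% G and C, held 4 matches to GGGCGG, of which 2 overlap, and the LAMB2 window held 1 to GGGCGG and 1 to CAGAC. The GC box was found in 42.6% and the SMAD motif in 38.0% of all windows. No window of these 3 held the CCAAT box (found in 32.0% of all windows), the TATA motif (10.7%), CTTTGAT (2.26%) or the E-box (6.34%). A match is a description of the letters, not a measured binding site.

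Of the 5 laminin alpha chains, 3 were tested and LAMA2 rose. LAMA2, the alpha chain of muscle and nerve basement membranes, stood at 2.29, 2.46 and 2.31 RPKM in AKIT and at 0.497 and 0.572 in E8. Its AKIT values lay close together and all above both E8 values. The mean was 2.35 ± 0.0933 RPKM in AKIT and 0.534 ± 0.0530 in E8, 4.40-fold higher in AKIT (log2 difference 1.13 ± 0.12, limma adjusted p = 0.00251). LAMA2 was called under all 16 alternatives that gave a value (adjusted p 0.000271 to 0.0434). At a mean of 0.534 RPKM, LAMA2 in E8 was near the filter, and it rested on 85 and 90 reads there.

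LAMA5, the alpha chain of the laminins that support pluripotent cells, stood at 9.94, 17.9 and 11.4 RPKM in AKIT and at 16.7 in each E8 library. AKIT replicate 2 lay above both E8 libraries and the other AKIT libraries below them. Its log2 difference was -0.37 ± 0.22, with a 95% interval from -0.89 to 0.16 (limma adjusted p = 0.276). Without AKIT replicate 2 LAMA5 passed with a log2 difference of -0.60 (limma adjusted p = 0.00771, the lowest of a range up to 0.663 among alternatives). LAMA1, the alpha chain of the earliest embryonic basement membranes, stood at 3.85, 4.28 and 3.25 RPKM in AKIT and at 3.55 and 4.14 in E8. These values overlapped (log2 difference -0.02 ± 0.14, 95% interval -0.35 to 0.31, limma adjusted p = 0.934).

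LAMA3, an epithelial chain, and LAMA4, a chain of vessel walls, did not reach the filter. LAMA3 ranged from 0.133 to 0.202 RPKM in AKIT and from 0.121 to 0.175 in E8. LAMA4 ranged from 0.103 to 0.132 RPKM in AKIT and stood at 0.189 in both E8 libraries, without overlap. With no filter on low values LAMA4 did not pass (limma adjusted p = 0.229).

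Of the 4 beta chains, 3 were tested, and the 2 abundant ones moved in opposite directions. LAMB1, the beta chain of most embryonic laminins, stood at 18.2, 20.5 and 14.4 RPKM in AKIT and at 7.28 and 8.07 in E8. The lowest AKIT value was above the highest E8 value. LAMB1 was 2.31-fold higher in AKIT (17.7 ± 3.07 against 7.68 ± 0.553 RPKM, log2 difference 1.10 ± 0.15, limma adjusted p = 0.00522). The call ended without E8 replicate 1 (adjusted p = 0.0689) and without E8 replicate 2 (0.0518), within 0.000916 to 0.0689 over all alternatives.

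LAMB2, the beta chain of neuromuscular and kidney basement membranes, stood at 11.7, 14.3 and 11.8 RPKM in AKIT and at 19.1 and 21.8 in E8. All AKIT values were below both E8 values. LAMB2 was 1.62-fold higher in E8 (12.6 ± 1.44 RPKM in AKIT against 20.4 ± 1.95, log2 difference -0.66 ± 0.12, limma adjusted p = 0.0144). The call ended without E8 replicate 1 (adjusted p = 0.0872) and without E8 replicate 2 (0.157), within 0.00259 to 0.157 over all alternatives.

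LAMB3, the beta chain of epithelial anchoring laminin, was the third tested chain of this class. It stood at 0.631, 0.536 and 0.803 RPKM in AKIT and at 0.365 and 0.342 in E8, without overlap, and did not pass (log2 difference 0.29 ± 0.14, limma adjusted p = 0.192). LAMB4 was at 0 in every library.

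Among the gamma chains, LAMC3 rose. LAMC3, a gamma chain known from brain, retina and peripheral nerve, stood at 8.58, 9.84 and 7.87 RPKM in AKIT and at 4.61 and 4.97 in E8. The groups did not overlap. LAMC3 was 1.83-fold higher in AKIT (8.76 ± 0.998 against 4.79 ± 0.255 RPKM, log2 difference 0.75 ± 0.13, limma adjusted p = 0.0095). Without E8 replicate 1 or 2 its adjusted p was 0.109 and 0.0848, within 0.00233 to 0.109 over all alternatives.

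LAMC1, the gamma chain shared by most laminins, was the most abundant laminin transcript per length. It stood at 44.3, 41.1 and 35.4 RPKM in AKIT and at 42.0 and 44.4 in E8. The values overlapped, with a log2 difference of -0.10 ± 0.12 (95% interval -0.38 to 0.17, limma adjusted p = 0.558).

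**Figure D2:**
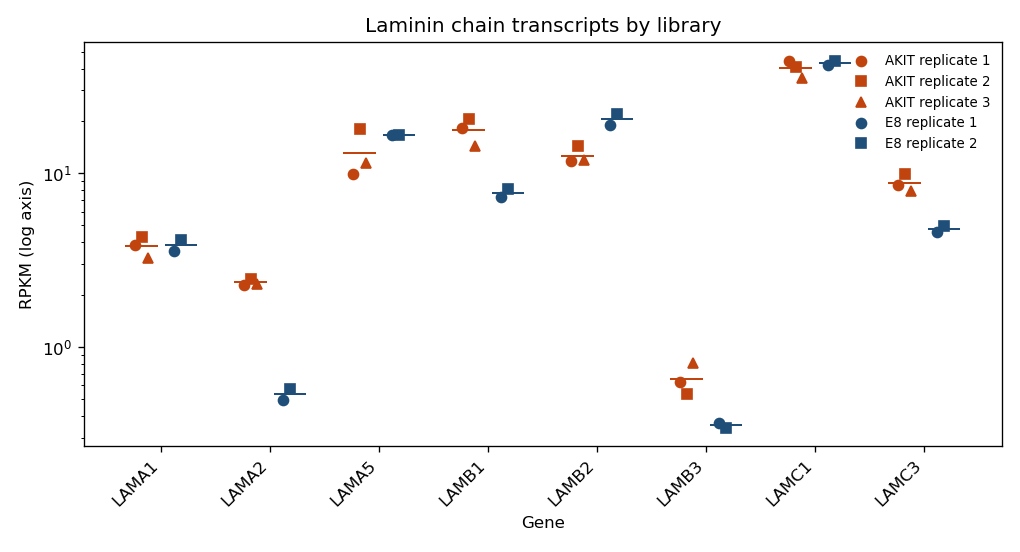
RPKM (log axis) of tested laminin chain genes in each library, AKIT in orange and E8 in blue, with a marker for each replicate and a bar at the group mean. LAMA2, LAMB1, LAMB3 and LAMC3 lie higher and LAMB2 lower in every AKIT library than in both E8 libraries, and LAMA5 in AKIT replicate 2 lies above both E8 values, with the other AKIT libraries below them.

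Since each laminin holds 1 chain of each class, the share of a chain in the summed RPKM of its class was computed in each library; it does not depend on how a library is scaled. LAMB1 made up 59.6%, 58.0% and 53.3% of beta chain RPKM in AKIT and 27.3% and 26.7% in E8. LAMB2 made up 38.4%, 40.5% and 43.8% in AKIT and 71.4% and 72.2% in E8. The ratio of LAMB1 to LAMB2 was 1.22 to 1.55 in AKIT and 0.370 to 0.382 in E8. Which chain leads in AKIT depends on the gene length the authors used for LAMB1. The steps of its RPKM values fit a length of 2923 bases or a multiple of it, and the longest coding transcript in GENCODE is 5766 bases, 1.97 times as long. If the authors used a multiple near that longer length, the deposited values already rest on it and the ratios above stand. Only if they used 2923 bases does rescaling LAMB1 to the longer length apply, an alternative chosen after seeing the data. Which length they used could not be told. With the rescaling, the ratio was 0.617 to 0.787 in AKIT and 0.188 to 0.194 in E8, so that LAMB2 led in every library. The LAMB1 share was then 36.6% to 42.8% in AKIT and 15.6% to 16.0% in E8, still without overlap. The fold change of the ratio between media does not depend on that length.

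Among alpha chains, LAMA2 made up 13.99%, 9.85% and 13.3% of class RPKM in AKIT and 2.35% and 2.63% in E8, while LAMA5 led in every library, with 60.8%, 71.9% and 66.1% in AKIT and 79.1% and 76.9% in E8. Among gamma chains, LAMC3 made up 15.2%, 18.2% and 16.5% in AKIT and 9.14% and 9.28% in E8, and LAMC1 74.4% to 78.6% in AKIT and 83.0% to 83.4% in E8. For each of these shares, LAMB1, LAMB2, LAMA2, LAMA5, LAMC1 and LAMC3, the groups did not overlap. The two-sided exact permutation p, the smaller tail doubled, was 0.2 for each, the smallest this test can give with 3 against 2 libraries. Shares of a class add up to the whole, so a higher share of any chain lowers the others, and these are not separate results. The RPKM of LAMA5 and LAMC1 themselves overlapped between media. The LAMA1 share overlapped between media (exact permutation p = 0.6). The summed RPKM of each class overlapped between media as well. It was 16.3 to 25.0 in AKIT and 21.1 to 21.7 in E8 for alpha chains, 27.1 to 35.3 and 26.7 to 30.2 for beta chains, and 47.6 to 56.4 and 50.4 to 53.5 for gamma chains.

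**Figure D3:**
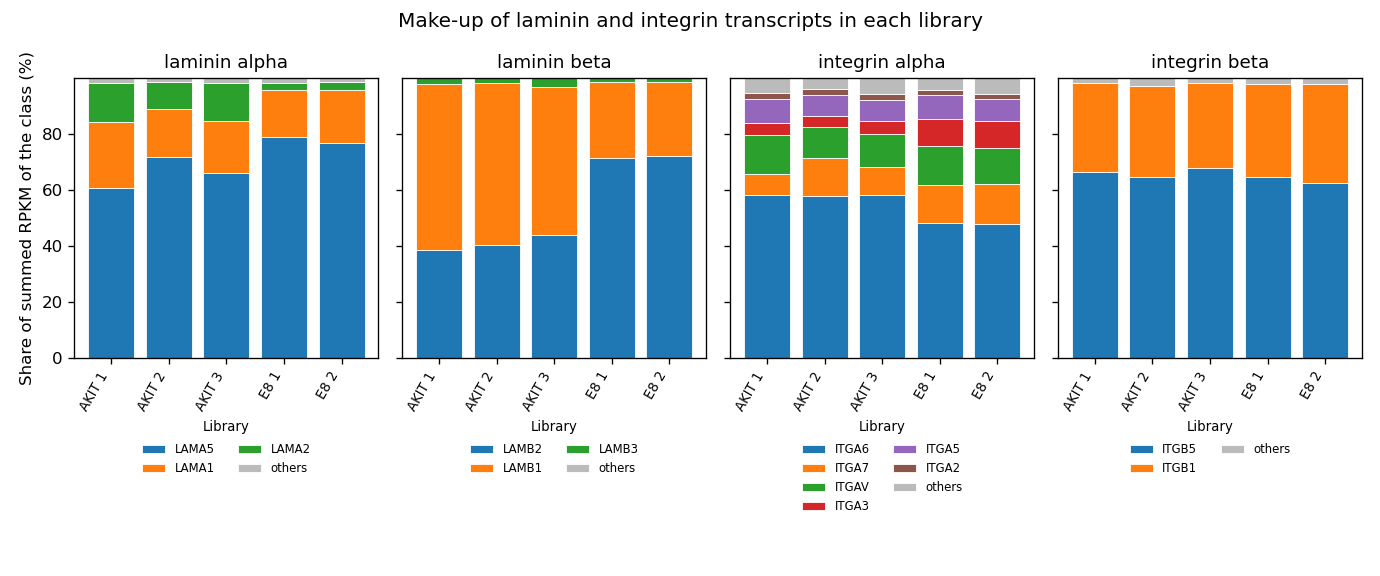
Share (%) of each chain or subunit in the summed RPKM of its class, for laminin alpha and beta chains and integrin alpha and beta subunits, in each of the 5 libraries, with members under 2% in both media drawn together in grey. The step between AKIT and E8 is seen in the beta chains, where LAMB1 holds 53.3% to 59.6% in AKIT and 26.7% to 27.3% in E8 as deposited. Only if the authors used 2923 bases for LAMB1 would rescaling to its longest coding transcript apply, with 36.6% to 42.8% in AKIT and 15.6% to 16.0% in E8.

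Among the laminin-binding integrin subunits, ITGA3 fell and ITGA6 did not pass the test. ITGA3, the alpha subunit of a receptor for laminins with LAMA3 or LAMA5, stood at 4.22, 4.04 and 3.94 RPKM in AKIT and at 9.64 and 9.58 in E8. Both groups were tight and did not overlap. ITGA3 was 2.37-fold higher in E8 (4.06 ± 0.142 RPKM in AKIT against 9.61 ± 0.0469, log2 difference -1.07 ± 0.10, limma adjusted p = 0.00179). The call held under all 17 alternatives (adjusted p 0.000298 to 0.0389).

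ITGA6, the alpha subunit of the main laminin receptor of pluripotent cells, was the most abundant integrin alpha transcript per length. It stood at 58.2, 57.5 and 50.4 RPKM in AKIT and at 48.1 and 46.5 in E8. All AKIT values were above both E8 values, but the difference did not pass (log2 difference 0.22 ± 0.10, 95% interval -0.02 to 0.46, limma adjusted p = 0.167). Rows are per gene, so the splice forms of its tail cannot be seen. ITGA7, a laminin receptor subunit best known from muscle, stood at 7.56, 13.6 and 8.53 RPKM in AKIT and at 13.4 and 14.1 in E8. AKIT replicate 2 lay between the E8 values and the other AKIT libraries below them. The log2 difference of ITGA7 was -0.48 ± 0.22 (limma adjusted p = 0.169). Without AKIT replicate 2 ITGA7 passed with -0.71 (limma adjusted p = 0.00471, the lowest of a range up to 0.462 among alternatives).

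The ratio of ITGA6 to ITGA3 was 12.8 to 14.2 in AKIT and 4.86 to 4.99 in E8. ITGA6 made up 58.2%, 57.9% and 58.3% of integrin alpha RPKM in AKIT and 48.4% and 47.7% in E8. ITGA3 made up 4.22%, 4.07% and 4.55% against 9.70% and 9.83%. For each, the exact permutation p was 0.2, the smallest this test can give, and shares of a class depend on each other. The summed alpha subunit RPKM overlapped, at 86.5 to 100.007 in AKIT and 97.4 to 99.4 in E8.

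ITGB1, the common beta partner of the laminin-binding subunits, stood at 46.8, 35.5 and 37.5 RPKM in AKIT and at 45.9 and 46.7 in E8. AKIT replicate 1 lay at the level of E8 and the other AKIT libraries below it (log2 difference -0.22 ± 0.13, 95% interval -0.53 to 0.09, limma adjusted p = 0.278). ITGB4, the beta subunit that pairs with ITGA6 in hemidesmosomes, was low, from 0.857 to 1.30 RPKM in AKIT and from 0.773 to 1.03 in E8, with overlap (log2 difference 0.08 ± 0.16).

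None of the tested subunits that bind RGD sequences or collagens passed the test. ITGB5, a partner of ITGAV in vitronectin binding, was the most abundant integrin transcript per length, at 97.4, 70.4 and 83.0 RPKM in AKIT and 89.2 and 82.5 in E8, with overlap (log2 difference -0.05 ± 0.14, 95% interval -0.39 to 0.29). Its ratio to ITGB1 was 1.98 to 2.21 in AKIT and 1.76 to 1.94 in E8. ITGAV stood at 14.03, 10.7 and 10.4 RPKM in AKIT and at 13.9 and 12.5 in E8, also with overlap (log2 difference -0.17 ± 0.15, 95% interval -0.52 to 0.18).

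ITGA5, the fibronectin receptor subunit, stood at 8.64, 7.63 and 6.49 RPKM in AKIT and at 8.26 and 7.76 in E8 (a log2 difference of -0.08 ± 0.13, 95% interval -0.40 to 0.24). The values overlapped. The other tested members of these groups were ITGB8, a partner of ITGAV, with a log2 difference of -0.16 ± 0.21, the platelet subunit ITGA2B (-0.26 ± 0.14), and the collagen receptor subunits ITGA1 (-0.03 ± 0.15) and ITGA2 (0.15 ± 0.13). ITGA9, a tenascin receptor subunit (0.28 ± 0.15), and ITGAE, the partner of ITGB7 in binding E-cadherin (-0.11 ± 0.20), did not pass either. Of these, ITGA2 and ITGA9 were higher and ITGA2B lower in each AKIT library than in both E8 libraries.

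**Figure D4:**
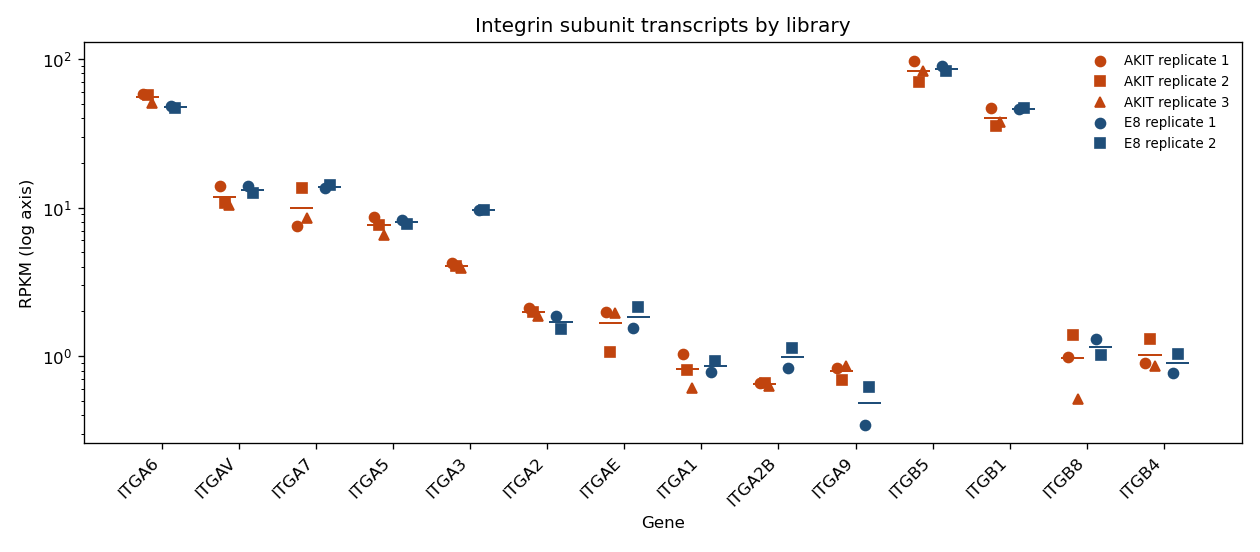
RPKM (log axis) of the 14 tested integrin subunit genes in each library, alpha subunits left and beta subunits right, each in order of mean level, with a bar at the group mean. ITGB5, ITGA6 and ITGB1 lie highest in both media, and ITGA3 is the gene whose AKIT and E8 libraries lie farthest apart.

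The 15 members under the filter were 3 laminin chains and 12 integrin subunits. ITGAD, a leukocyte subunit, was at 0 in every library, as was LAMB4. ITGAL, the alpha subunit of the lymphocyte receptor LFA, stood at 0.305, 0.239 and 0.475 RPKM in AKIT and at 0 and 0.0236 in E8. All AKIT values were above both E8 values. Its values rested on 114 reads over the AKIT libraries and 2 over the E8 libraries, a ratio per depth of 29.3 (95% exact interval from counting error only 7.93 to 245). With no filter on low values ITGAL passed (log2 difference 0.40, limma adjusted p = 0.0355). ITGAM and ITGAX, alpha subunits of myeloid cells, went the other way. ITGAM had 2 reads over the AKIT libraries and 19 over the E8 libraries (a ratio of E8 to AKIT per depth of 18.5, interval 4.46 to 164), and ITGAX 6 and 17 (5.51, interval 2.07 to 17.1). Neither passed with no filter (limma adjusted p = 0.0613 and 0.146).

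ITGB2, the shared beta subunit of ITGAL, ITGAM and ITGAX, ranged from 0.260 to 0.274 RPKM in AKIT and from 0.333 to 0.396 in E8, below in each AKIT library. It rested on 55 and 39 reads, a ratio of AKIT to E8 per depth of 0.725, with an interval from counting error only of 0.473 to 1.12. With no filter ITGB2 did not pass (limma adjusted p = 0.259). ITGB7 ranged from 0.0310 to 0.0930 in AKIT and from 0.156 to 0.204 in E8, and ITGA4, a receptor subunit of leukocytes and neural crest, from 0.170 to 0.198 and from 0.334 to 0.382. ITGA10 and ITGB3 overlapped between media, at 0.0595 to 0.110 and 0.0351 to 0.193 RPKM over all libraries. ITGA8, ITGA11 and ITGB6 had at least 1, 1 and 3 reads in AKIT, at most 0.0132, 0.146 and 0.0359 RPKM, and 0 in both E8 libraries. These are the smallest read numbers that the steps of the values allow. For ITGA11 they go with a length of 295 bases, while its longest coding transcript in GENCODE has 10192. Its reads, all in AKIT replicate 1, may therefore be many more. The leukocyte markers PTPRC and TYROBP were at 0 in every library, and of that list of 6 markers only CD74 reached the filter, at 16.9 to 24.0 RPKM in AKIT and 42.0 to 49.2 in E8.

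Markers of other cell types were summed in each library and were not tested against LAMA2, LAMB1 or LAMC3. The 6 fibroblast markers summed to 50.9 to 61.7 RPKM in AKIT and 69.0 to 72.3 in E8, with COL1A1 and PDGFRB falling and 0 rising, and COL1A1 was the largest part of each sum. LUM stood at 5.81, 1.83 and 0.0244 RPKM in AKIT and was 0 in both E8 libraries, COL3A1 stood at 5.63, 2.15 and 0.141 against 0.0413 and 0, and DCN stood at 0.754, 0.0685 and 0 against 0 and 0. COL3A1 was higher in each AKIT library than in both E8 libraries. LUM was higher in AKIT replicates 1 and 2, and its value in AKIT replicate 3 was near 0. LAMA2 stood at 2.29, 2.46 and 2.31 RPKM in AKIT, and whether its level goes with these markers was not tested. The 6 endoderm markers summed to 5.21 to 6.01 RPKM in AKIT and 2.23 to 2.74 in E8, and FOXA2 rose. SOX17, a defining endoderm factor, was at 0.0732 to 0.110 RPKM in AKIT and 0.0524 to 0.0964 in E8. GATA4 (0.545 to 0.605 against 0.233 to 0.361) and GATA6 (0.384 to 0.898 against 0.324 to 0.335) were higher in each AKIT library than in both E8 libraries. SOX7 (0.789 to 1.14 against 0.632 to 0.880) and AFP (0.381 to 0.710 against 0.424 to 0.557) overlapped between media. The 4 neural crest markers summed to 4.0 to 8.72 RPKM in AKIT and 14.5 to 15.7 in E8, a difference carried mostly by the fall of NGFR (1.90 to 2.92 against 11.6 to 13.3). SOX10 was also lower in each AKIT library than in both E8 libraries (1.83, 1.40 and 1.98 against 2.30 and 2.90). TFAP2B went the other way, at 2.40, 0.0596 and 0.0179 RPKM in AKIT and 0 in both E8 libraries, and PAX3 stood at 1.57, 0.281 and 0.09998 against 0.110 and 0.0149. The 4 muscle markers summed to 1.82 to 2.40 RPKM in AKIT and 2.60 to 3.77 in E8. Of the remaining lists, endothelial markers summed to 1.29 to 2.35 RPKM in AKIT and 2.93 to 3.13 in E8, megakaryocyte markers to 4.29 to 5.57 and 4.19 to 5.33 (GP9 at 0), and keratinocyte markers to 0.0395 to 0.105 and 0.0420 to 0.0535 (KRT14 at 0). Trophoblast markers summed to 4.78 to 12.4 and 7.40 to 7.74, and KRT7 fell. HAND1 (6.31, 2.79 and 1.78 against 1.04 and 0.921) and CGA (1.99, 0.102 and 0.611 against 0 and 0) were higher in each AKIT library than in both E8 libraries. GATA3 overlapped, at 2.05, 0.658 and 1.01 against 1.40 and 1.30, and ELF5 was at 0 except in AKIT replicate 2 (0.0334). The part of such cells in the changes of the laminin chains was not tested, and in bulk RNA fewer cells of a type and less RNA per cell cannot be told apart.

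Genes that act with laminins and integrins were described from 9 lists with 97 distinct tested genes, of which 10 rose and 21 fell, or 32.0% called, beside the 20.0% of all tested genes. The lists were chosen with earlier results of these data known, so the higher share is no test of enrichment. With E8 replicate 1 or 2 left out, 1 of these genes rose and 3 fell. The counts without AKIT replicate 3 were 12 up and 12 down. Of 12 tested basement membrane partners, 4 fell and 1 rose, with a median log2 difference of -0.58 beside -0.01 for all tested genes, of which 11.7% fell and 8.22% rose. NID1, nidogen, which links laminin gamma chains to collagen IV, stood at 11.02, 9.17 and 7.70 RPKM in AKIT and at 25.3 and 28.2 in E8, without overlap (log2 difference -1.44 ± 0.15, limma adjusted p = 0.00212). SPARC, a collagen-binding matrix protein, fell by 0.85 and NID2, the second nidogen, by 0.76 on the log2 scale. Named after their values were seen, the fourth gene that fell was COL18A1, a heparan sulfate collagen (log2 difference -0.50), and the 1 that rose was COL4A1, a chain of collagen IV (0.67). COL18A1 was called in 7 of 17 alternatives and NID2 in 11 of 16.

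Of 6 laminin receptors other than integrins, 4 fell and 0 rose (median log2 difference -0.55), beside 11.7% and 8.22% of all tested genes. DAG1, dystroglycan, a receptor for the LG domains of laminin alpha chains, stood at 76.7, 70.7 and 72.8 RPKM in AKIT and at 123 and 124 in E8 (a log2 difference of -0.74 ± 0.09, limma adjusted p = 0.00321). BCAM, the Lutheran receptor that binds LAMA5, stood at 10.2, 14.8 and 11.1 RPKM in AKIT and at 23.2 and 23.5 in E8 (-0.92 ± 0.16, limma adjusted p = 0.00995). For both genes all AKIT values were below both E8 values. The syndecan SDC2 fell by 1.27 on the log2 scale and, named after its values were seen, SDC4 by 0.37. SDC2 was called in 15 and SDC4 in 10 of 17 alternatives. Of 9 tested enzymes of the glycan by which dystroglycan binds laminin, 1 fell and 0 rose (median -0.01). It was the row B3GNT1, a symbol that has been used for more than 1 gene (log2 difference -0.65).

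Tetraspanins are membrane proteins that gather integrins, among them the laminin receptors. Of 6 tested, 2 rose and 1 fell (median log2 difference 0.19), beside 8.22% and 11.7% of all tested genes. CD81 stood at 264, 204 and 193 RPKM in AKIT and at 122 and 118 in E8 (a log2 difference of 0.86 ± 0.15, limma adjusted p = 0.0104), and CD63, a tetraspanin of late endosomes, rose by 1.04 ± 0.18. TSPAN4 fell by 0.43 on the log2 scale and was called in 11 of 17 alternatives. Named after its values were seen, CD151, the tetraspanin bound most firmly by the laminin receptors, was at 44.4 RPKM in the mean of AKIT and 54.3 in E8 and did not pass (limma adjusted p = 0.126).

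Of 20 tested ligands of other integrins, 5 fell and 1 rose (median log2 difference -0.28), beside 11.7% and 8.22% of all tested genes. MFGE8, a ligand of the ITGAV receptors, stood at 146, 128 and 126 RPKM in AKIT and at 312 and 325 in E8 (a log2 difference of -1.25 ± 0.11, limma adjusted p = 0.00126). The matricellular genes CTGF and CYR61 fell by 1.87 and 1.42 on the log2 scale, with AKIT replicate 2 the highest of the AKIT libraries for both, at 115 and 113 RPKM. Named after their values were seen, COL1A1 and ICAM1 also fell (log2 differences -0.51 and -0.79), and NPNT, nephronectin, rose (0.98). COL1A1 was called in 11 and ICAM1 in 10 of 17 alternatives, and NPNT in 14 of 16.

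Inside the cell, talins and kindlins switch integrins on by binding the beta tail. Of 13 tested genes of integrin activation and inactivation, 3 rose and 1 fell (median log2 difference 0.12). The shares of all tested genes were 8.22% and 11.7%. FERMT1, the kindlin of epithelia, stood at 12.8, 13.1 and 15.2 RPKM in AKIT and at 5.51 and 5.95 in E8 (a log2 difference of 1.13 ± 0.12, limma adjusted p = 0.00207). All AKIT values were above both E8 values, and the call held under all 17 alternatives. ITGB1BP1, which holds ITGB1 inactive, rose by 0.69 ± 0.15, while DOK1, named after its values were seen, fell (log2 difference -0.45). ITGB1BP1 was called in 12 and DOK1 in 9 of 17 alternatives.

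Of 6 genes of the complex of ILK, PINCH and parvin, RSU1 rose (log2 difference 0.55 ± 0.09, limma adjusted p = 0.00994) and 0 fell (median 0.13). Of 23 adaptors and kinases of focal adhesions, 5 fell and 2 rose (median -0.06), beside 11.7% and 8.22% of all tested genes. BCAR1, a scaffold that is phosphorylated at adhesions, stood at 19.3, 21.1 and 22.5 RPKM in AKIT and at 51.3 and 44.2 in E8 (a log2 difference of -1.15 ± 0.11, limma adjusted p = 0.00178), and its relative NEDD9 fell by 0.89 on the log2 scale. TNS4, a tensin, rose and was low in both media (0.994 ± 0.191 RPKM in AKIT and 0.167 ± 0.0201 in E8). The others called, named after their values were seen, were SRC, FYN and TNS1, which fell (log2 differences -0.42, -0.50 and -0.63), and TNS3, which rose (0.51). SRC was called in 12, FYN in 13 and TNS3 in 14 of 17 alternatives, and TNS1 in 13 of 16. Of the 2 tested hemidesmosome genes, neither PLEC (log2 difference -0.09 ± 0.14) nor DST (0.56 ± 0.28) passed.

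**Figure D5:**
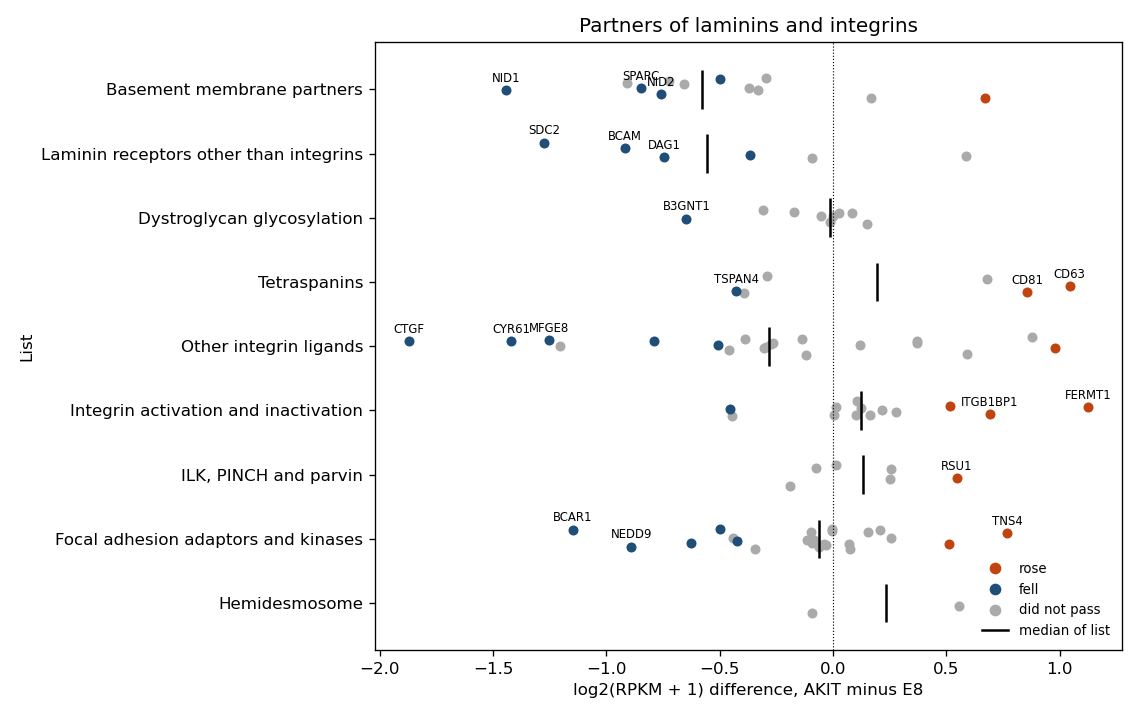
Difference between AKIT and E8 on the log2(RPKM + 1) scale for the tested genes of 9 lists of laminin and integrin partners, 1 point per gene, orange for genes that rose, blue for genes that fell and grey for the rest, with a bar at each list's median. The medians of basement membrane partners (-0.58) and of laminin receptors other than integrins (-0.55) lie farthest to the left.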

How the data were processed

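From KhES-1 cells, 3 libraries in AKIT and 2 in E8 were used (E8 replicate 3 was not analysed here), made from total RNA by Illumina's usual protocol, per the labels' protocols. The authors deposited 1 RPKM value per gene and library. Builds hg19 and GRCh37 are named in the submitters' processing notes. The aligner, counter, annotation and strand setting were not given in the sources used here, so overlapping and antisense genes cannot be told apart.

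Low RPKM values were whole multiples of 1 read (19891 of 19892 genes above 0 within 0.02 reads in every library), which gave depths of 16242864 to 23263095 reads. Read numbers are the smallest whole numbers those steps allow. At 1 kb, 1 read is worth 0.043 to 0.0616 RPKM.

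The 14776 genes whose mean reached 0.5 RPKM were tested on log2(RPKM + 1) by limma 3.58.1, with its intensity trend, in R 4.3.3. Tests were two-sided and p-values adjusted by Benjamini-Hochberg over these genes, at a threshold of 0.05. Intervals are 95%. The procedure was run on simulated reads with the same setting of spread for all genes and libraries. The AKIT libraries here differed more among themselves than the E8 libraries, so that simulation does not cover these data. Shares within a class were compared with exact permutation tests, made two-sided by doubling the smaller tail. Members, gene lists and marker lists (pluripotent, leukocyte, megakaryocyte, endothelial, fibroblast, endoderm, trophoblast, keratinocyte, neural crest, muscle) were chosen with earlier results of these data known. Given in full were the members past the test and a set of receptors and chains known from pluripotent cells, and from each partner list up to 3 genes past the test with the largest difference, or the 2 with the smallest p where none passed. Alternatives changed the pseudocount, filter, scaling, trend, weights, block, use of recovered reads and the libraries included. Protein features were not analysed here, and 2 genes that enter the counts are not reported here by name.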

Additional observations from a re-analysis of the deposited data

How the results depend on the processing

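No laminin or integrin member past the test changed sign under these alternatives, and the calls of LAMA2 and ITGA3 held wherever a value could be had. With array weights 2269 genes rose and 2740 fell, and among laminin and integrin members 4 fell, with LAMA5 and ITGA7 added. Leaving out 1 library gave 142 to 2132 genes that rose and 250 to 2619 that fell, 1 to 3 members that rose and 1 to 4 that fell, and 1 to 15 genes of the partner lists that rose and 3 to 29 that fell. The lowest counts came without E8 replicate 1 or 2, where E8 has 1 library and is assumed to vary like AKIT, and the highest without AKIT replicate 2, and the cause was not tested. The labels give both media the same replicate numbers but do not say that a number pairs samples, and the deviations of same-numbered libraries had correlations of -0.0013 and 0.0254. With 2 E8 libraries the E8 deviations mirror each other, so these correlations cannot decide whether numbers pair. With the replicate number as a block, 492 genes rose and 824 fell, the members stayed at 3 and 2, and in the partner lists 8 rose and 11 fell. AKIT replicate 3 has no E8 library of its number here, so the differences of that fit rest on the other libraries. Without AKIT replicate 3 and with no block, 684 genes rose and 1117 fell. With no filter 4 members rose, with ITGAL added, and with a minimum mean of 2 RPKM 2 rose, since LAMA2 was no longer tested. Removal of a trend on gene length or GC content, chosen after seeing the data, left the members at 3 and 2, while in the partner lists 14 rose and 21 fell without the length trend and 12 rose and 15 fell without the GC trend. With LAMB1 rescaled from 2923 bases to its longest coding transcript, also chosen after seeing the data, the share difference was 24.4 percentage points for LAMB1 and -26.0 for LAMB2. That rescaling applies only if the authors used 2923 bases. The differences in shares kept their sign in each alternative, and that of LAMA1 ranged from 0.009 to 3.23 percentage points without 1 library. At these depths a member at 0 in a library may still have a level worth up to 3 reads. The read numbers given are the smallest the steps allow.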
